A study of Mus with 12 samples.

Results

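The expression of 7 connexin genes (Gja1, Gja4, Gja5, Gjb1, Gjb2, Gjb5 and Gjc1) was examined in the uterus of pregnant mice around embryo implantation and before labor. The genes were picked by name as connexins of the muscle, vessels and epithelium, and each was read from the row that carried its gene name and an Ensembl transcript. All 7 were found, as 7 of the 87235 rows of the early table (E0.5, E4.5) and as 7 of the 40787 rows of the late one (E15.5, E18.5). All 7 also passed the filter on low values in both tables.

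Connexins are membrane proteins that assemble into hexameric channels, and channels of neighbouring cells dock to form gap junctions through which ions and small molecules pass directly between cells. In the uterus, gap junctions of Cx43, the product of Gja1, couple the smooth muscle cells of the myometrium, and Cx43 is also the main connexin of the decidualizing stroma. Epithelial cells mainly use Cx26 and Cx32, the products of Gjb2 and Gjb1, and vessels mainly use Cx37 and Cx40, the products of Gja4 and Gja5.

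RNA was sequenced from the uteri of ICR mice, an outbred stock, pregnant at E0.5, E4.5, E15.5 or E18.5. The design text gives their age as 8 weeks, while the methods give a slightly higher age, in days, at mating, so the mice of the late days were older. Each of the 4 days had 3 mice with 1 library per mouse, and the labels name no genetic change and no treatment. The study compared E0.5 with E4.5 as the implantation stage and E18.5 with E15.5 as the labor stage, with the stages set by progesterone levels. The uterus was taken as an organ, so the libraries mix muscle, stroma, epithelium and vessels, and in such bulk RNA fewer cells of a type and less RNA per cell cannot be told apart.

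The libraries of E0.5 and E4.5 held 58020989 to 70906881 counts. The depth in counts of each late library was unknown, because only FPKM, the fragments per kilobase of transcript scaled to the size of the library, was given for them. For depth the paper's text gives an approximate amount of data per sample. All 7 smooth muscle markers and all 7 epithelial markers were above 0 in all 12 libraries. One library stood apart: in E4.5 replicate 3 the 7 ovary markers summed to 839 FPKM, against 4.26 to 6.44 FPKM in the other libraries of E0.5 and E4.5, with Cyp11a1 at 378 FPKM and Star at 238 FPKM. The smooth muscle markers summed to 206 FPKM in that library, against 1214 and 798 FPKM in the other E4.5 libraries and 832 to 1155 FPKM at E0.5. Its epithelial markers summed to 90.7 FPKM, against 147 to 303 FPKM in the other 5. Each difference of the 7 connexins between E0.5 and E4.5 is therefore given with and without this library, and the part of these cell types in the differences was not tested. Markers of placenta and yolk sac also varied late in pregnancy. The trophoblast markers summed to 3.85 to 35.0 FPKM at E15.5 and to 43.0 to 74.6 FPKM at E18.5, and the yolk sac markers to 1.53, 107 and 785 FPKM in E15.5 replicates 1, 2 and 3. The liver markers summed to 6.66 to 151.8 FPKM on the late days and to 0.951 to 75.1 FPKM on the early days, on which Alb and Fgb were at 0 in all 6 libraries.

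The connexin with the highest level was Gjb2 in all 3 mice at E0.5 and Gja1 in all 3 at E4.5, and it differed between mice on each late day. At E0.5 the order of mean FPKM was Gjb2, Gja1, Gjc1, Gja4 and Gjb1, and no neighbours among these 5 overlapped over the 3 mice, while Gjb1, Gja5 and Gjb5 overlapped. At E4.5 Gja1 led without overlap, and every further pair of neighbours (Gja4, Gjb2, Gjc1, Gjb1, Gja5 and Gjb5) overlapped. At E15.5 Gjb1, Gja1, Gjb2 and Gjc1 overlapped as neighbours, followed by Gja5, Gja4 and Gjb5, which did not. At E18.5 Gjb2, Gjb1, Gja1, Gja5 and Gjc1 overlapped as neighbours, followed by Gja4 and Gjb5, which did not.

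**Figure D1:**
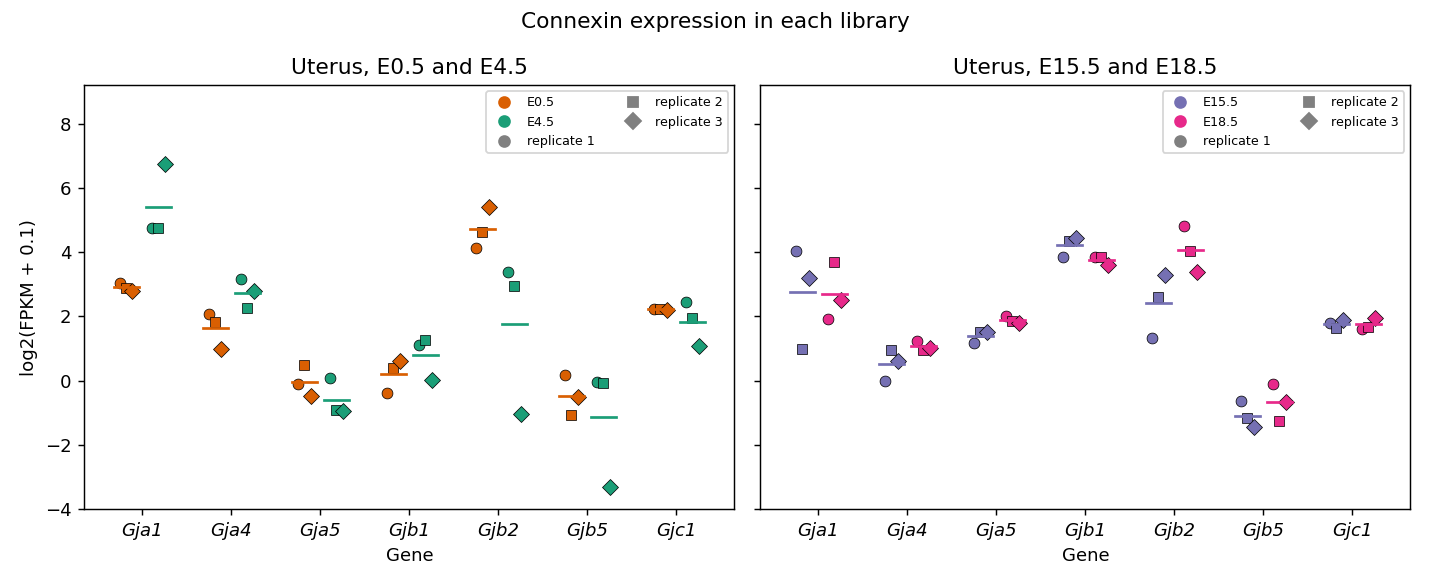
Level of each of the 7 connexin genes in each library, as log2(FPKM + 0.1), with E0.5 and E4.5 in the left panel and E15.5 and E18.5 in the right panel; each point is 1 mouse and each line the mean of the log2 values of 3 mice. Gja1 lies higher at E4.5 than at E0.5 in all 3 mice, and Gjb2 lies higher at E18.5 than at E15.5 in all 3 mice.

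The makeup of the summed FPKM of the 7 genes was also compared. Gjb2 made up 47.5%, 57.1% and 72.6% of the sum in the 3 mice at E0.5 and 18.7%, 16.3% and 0.331% at E4.5. Gja1 made up 21.9%, 17.1% and 11.8% at E0.5 and 48.7%, 57.6% and 91.1% at E4.5. The order of these genes was thus turned, since each E0.5 mouse held more Gjb2 than Gja1 and each E4.5 mouse held more Gja1 than Gjb2. At E15.5 Gjb1 made up 35.9%, 55.8% and 44.7% of the sum, and Gjb2 made up 6.05%, 16.8% and 20.0%. At E18.5 the share of Gjb1 was 25.5%, 27.4% and 31.8%, and that of Gjb2 was 50.0%, 31.1% and 27.7%. The share of Gjb2 was therefore higher in every E18.5 mouse than in every E15.5 mouse, while that of Gjb1 was lower. The Gja1 share was 40.8%, 5.23% and 18.8% at E15.5 and 6.62%, 24.6% and 14.9% at E18.5, and these ranges overlapped. Shares are set within a library, but the 2 tables were normalized separately, so levels at early and late pregnancy are only described side by side.

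**Figure D2:**
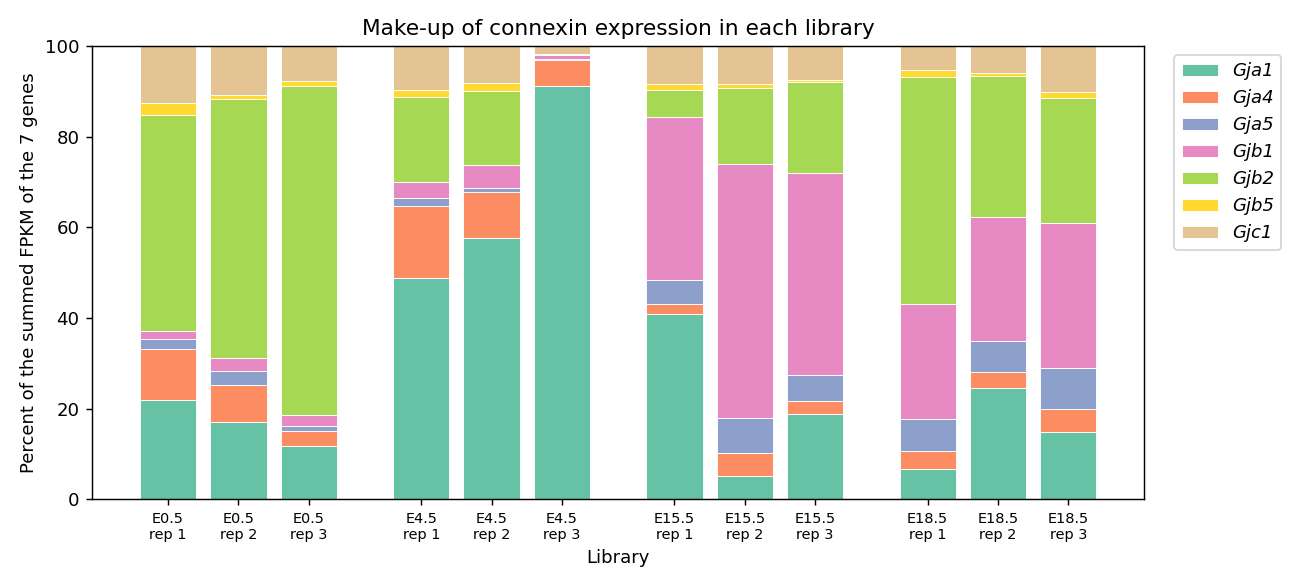
Share of each connexin in the summed FPKM of the 7 genes, in percent, for each of the 12 libraries; each bar is 1 mouse. Gjb2 takes 47.5% to 72.6% at E0.5, Gja1 takes 48.7% to 91.1% at E4.5, and Gjb1 takes 35.9% to 55.8% at E15.5.

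A gene was called different when its log2 fold change was at least 1 in size and its unadjusted p was under 0.05, the criterion of the study. Between E0.5 and E4.5, 2 of the 7 connexins were called, both lower at E0.5, where 12.2% of the 59732 rows tested were called (6.37% higher and 5.82% lower at E0.5). The expression of 3 of 7 did not overlap between the days, against 25.2% of all rows. Between E18.5 and E15.5, 1 of the 7 was called, higher at E18.5, where 6.05% of the 30928 rows tested were called (3.11% higher and 2.93% lower at E18.5). Here 4 of 7 did not overlap, against 19.9% of all rows. The median log2 fold change of the 7 was 0.20 at implantation (-0.38 without E4.5 replicate 3), where it was -0.007 over all rows, and 0.42 at labor, where it was 0.02 over all rows. With Benjamini-Hochberg adjustment over all rows, 0 of 7 passed 0.05 in edgeR's quasi-likelihood test at implantation, where 2 had an unadjusted p under 0.05, as had 17.0% of all rows, and 1 passed in DESeq2, in which 5816 rows passed, against 730 in edgeR. In limma at labor 0 of 7 passed, and 3 had an unadjusted p under 0.05, as had 12.2% of all rows. The adjusted threshold was passed by 1.22% of all rows at implantation and by 0.0259% at labor. An exact permutation test of 3 mice against 3 cannot give a p below 0.1.

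**Figure D3:**
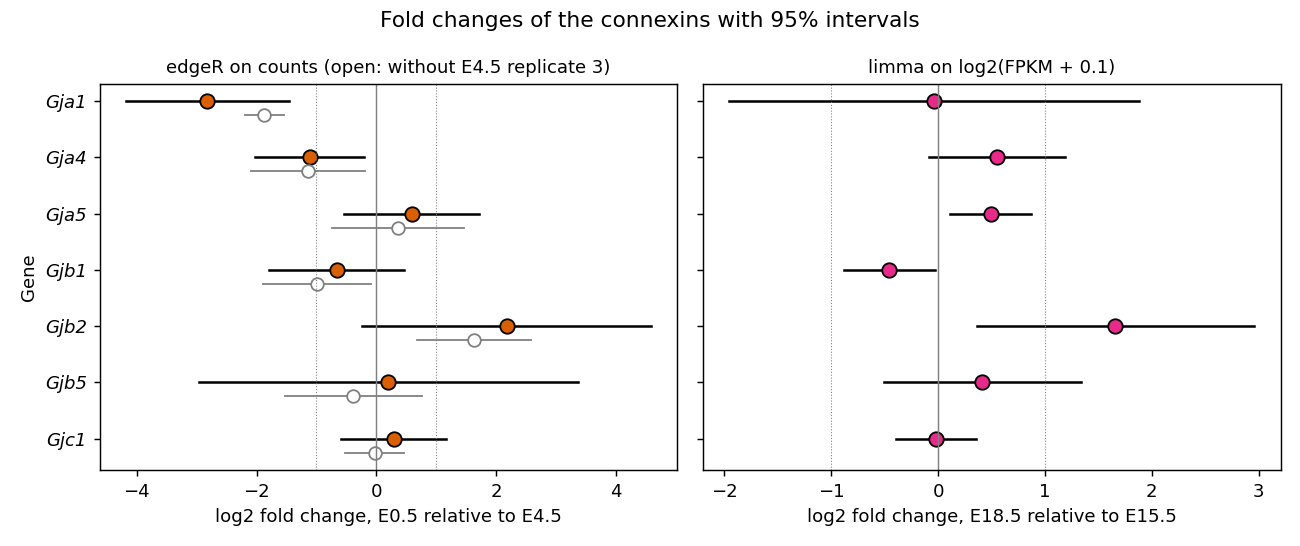
Log2 fold change of each connexin as E0.5 over E4.5 and as E18.5 over E15.5, with bars for the 95% interval of edgeR's quasi-likelihood fit or of limma; values above 0 are higher on the first day named. The intervals of Gja1 and Gja4 lie below 0 at implantation, and at labor those of Gjb2 and Gja5 lie above 0 and that of Gjb1 below 0.

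Gja1 (chromosome 10, 56377330 to 56402513 on the plus strand, GRCm38) encodes Cx43. Its row spans 25184 bases, against 13120 bases for the RefSeq gene, and overlaps 0 other rows. Its FPKM was 8.08, 7.30 and 6.87 in the 3 mice at E0.5 and 27.0, 26.6 and 108 at E4.5. All E4.5 mice were above all E0.5 mice, and the library with the ovary markers was far above the other E4.5 mice. Gja1 was lower at E0.5 by a log2 fold change of -2.82 (SE 0.57, n = 3 mice per day, edgeR adjusted p = 0.0738), with a 95% interval from -4.18 to -1.46, and met the criterion. Without E4.5 replicate 3 the fold change was -1.87 (SE 0.14), which is 3.66-fold lower at E0.5, and edgeR's adjusted p was 0.00154. The smooth muscle markers were not called (0 of 7), while of the 7 decidua and stroma markers, which summed to 91.0 to 147 FPKM at E0.5 and 38.2 to 132 FPKM at E4.5, Hand2 (-2.83) and Bmp2 (-3.44) were called lower and Dcn (1.55) higher at E0.5. Of all rows, 5.82% were called lower and 6.37% higher at E0.5. Without E4.5 replicate 3, Hand2, Bmp2 and Dcn were still called, at -3.38, -3.66 and 1.35, and Hoxa10 (-1.55) and Prl8a2 were also called lower, but Prl8a2 was above 0 in only 1 of the 6 libraries, E4.5 replicate 1. The part of the cell types in the Gja1 difference was not tested. The spread at E4.5 rested mostly on this library, since the counts were 23536, 22302 and 89454 at E4.5 and 7081, 5543 and 6132 at E0.5.

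Before labor the Gja1 values were widely spread on both days. They were 3.70, 12.8 and 5.62 FPKM at E18.5 and 16.4, 1.88 and 9.15 FPKM at E15.5. The highest and the lowest of the 6 values were both E15.5 mice, and the highest fell in the library whose decidua and stroma markers summed to 1835 FPKM, against 422 to 489 FPKM in the other 5. The smooth muscle markers summed to 2925 to 3944 FPKM at E15.5 and 3530 to 4443 FPKM at E18.5, and 0 of 7 were called, against 6.05% of all rows. The log2 fold change was -0.04 (SE 0.81, limma adjusted p = 0.991), and its 95% interval, -1.95 to 1.88, includes changes of more than 3-fold in either direction. It turned direction in 4 of 13 alternatives. It was -0.92 without E15.5 replicate 2 and 0.61 without E15.5 replicate 1. No difference of Gja1 between E18.5 and E15.5 was thus detectable with these 6 libraries.

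Gjc1 (chromosome 11, 102799579 to 102819700 on the minus strand) encodes Cx45, a low-conductance connexin of muscle and vessel wall cells. It gave 4.60, 4.61 and 4.53 FPKM at E0.5, against 5.36, 3.78 and 1.99 FPKM at E4.5. The 3 mice at E0.5 were nearly alike and fell within the range of E4.5, whose lowest value was again replicate 3. The log2 fold change was 0.29 (SE 0.37, edgeR adjusted p = 0.723, 95% interval -0.58 to 1.17), and without that library it was -0.02 (edgeR adjusted p = 0.978). Before labor Gjc1 was read at 2.98, 3.10 and 3.79 FPKM at E18.5 and 3.34, 3.02 and 3.61 FPKM at E15.5. Its log2 fold change of -0.02 had a 95% interval from -0.39 to 0.35 in limma.

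Gja4 (chromosome 4, 127311421 to 127314039 on the minus strand) encodes Cx37 of the endothelium. Its FPKM was 4.11, 3.46 and 1.87 at E0.5 and 8.81, 4.71 and 6.81 at E4.5, and the days did not overlap. Gja4 was called lower at E0.5, with a log2 fold change of -1.11 (SE 0.38, edgeR adjusted p = 0.216, 95% interval -2.02 to -0.20). It was -1.14 (edgeR adjusted p = 0.169) without E4.5 replicate 3. The call was lost without E0.5 replicate 3 (-0.85, edgeR adjusted p = 0.390) or without E4.5 replicate 1 (-0.84, edgeR adjusted p = 0.405). The endothelial markers summed to 26.3 to 34.3 FPKM at E0.5 and 43.8 to 64.7 FPKM at E4.5, and 3 of the 7 (Cdh5, Kdr and Emcn) were called lower at E0.5, against 5.82% of all rows. The other 4 were not called and ran from -0.66 (Tek) to 0.33 (Vwf), or from -0.78 (Tek) to 0.51 (Cldn5) without E4.5 replicate 3. The part of vessel content in the Gja4 difference was not tested.

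At labor Gja4 gave 2.26, 1.84 and 1.91 FPKM at E18.5 and 0.899, 1.83 and 1.42 FPKM at E15.5. The days were separated only by a gap of under 0.1 FPKM, and the log2 fold change of 0.55 (SE 0.27, limma adjusted p = 0.463) did not meet the criterion. The endothelial markers summed to 82.2 to 110 FPKM at E18.5 and 149.5 to 179 FPKM at E15.5, while their log2 fold changes ran from -1.26 to 0.55 (median -0.16) and 1 of the 7, Cdh5, was called lower at E18.5, against 2.93% of all rows.

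Gja5 (chromosome 3, 96904693 to 97077416 on the plus strand) encodes Cx40, which joins endothelial cells of arteries. Its row spans 172724 bases, against 21233 bases for the RefSeq gene, and overlaps 5 other rows, of which 1 has no strand and the others lie on the opposite strand, so its reads are uncertain. Gja5 gave 0.835, 1.3 and 0.615 FPKM at E0.5, against 0.963, 0.426 and 0.421 FPKM at E4.5. The days overlapped, and the log2 fold change was 0.59 (SE 0.47, edgeR adjusted p = 0.560, 95% interval -0.53 to 1.72), or 0.37 without E4.5 replicate 3. Without E4.5 replicate 1, the highest mouse of that day, it met the criterion at 1.16 (edgeR adjusted p = 0.301).

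At labor Gja5 gave 3.91, 3.53 and 3.39 FPKM at E18.5 and 2.14, 2.76 and 2.73 FPKM at E15.5. All E18.5 mice were above all E15.5 mice, with a log2 fold change of 0.49 (SE 0.16, limma adjusted p = 0.293, 95% interval 0.12 to 0.87), which is under the size the criterion asks for. Among the vessel connexins, Gja5 was lower than Gja4 in all 6 early mice, with a Gja5 to Gja4 ratio of 0.0618 to 0.376. It was higher than Gja4 in all 6 late mice, with a ratio of 1.51 to 2.38. Each ratio is within 1 library, but the tables and the bounds of the rows differ between the stages.

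Gjb2 (chromosome 14, 57098600 to 57104702 on the minus strand) encodes Cx26, a connexin of the endometrial epithelium. Its FPKM was 17.5, 24.3 and 42.3 at E0.5 and 10.4, 7.55 and 0.390 at E4.5. All E0.5 mice were above all E4.5 mice, and E4.5 replicate 3 was far below the rest. The log2 fold change was 2.18 (SE 1.01, edgeR adjusted p = 0.328, 95% interval -0.23 to 4.59) and did not meet the criterion, nor did it without E4.5 replicate 1, at 2.87. It met it without E4.5 replicate 3, at 1.63 (SE 0.40, edgeR adjusted p = 0.0661), or 3.09-fold higher at E0.5. It also met it with all libraries in DESeq2, at 2.20 (DESeq2 adjusted p = 0.0929), and in limma on FPKM, at 2.95 (limma adjusted p = 0.218).

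At labor Gjb2 was the connexin that was called. It gave 27.9, 16.2 and 10.4 FPKM at E18.5 and 2.43, 6.02 and 9.71 FPKM at E15.5. The days did not overlap, although the lowest E18.5 mouse and the highest E15.5 mouse were close. The log2 fold change was 1.66 (SE 0.55, limma adjusted p = 0.304, 95% interval 0.36 to 2.96), which is 3.16-fold higher at E18.5. Without E18.5 replicate 1 it was 1.29 (limma adjusted p = 0.628) and the call was lost.

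Some epithelial markers were called in the direction of Gjb2 in both comparisons. The 7 markers summed to 248 to 303 FPKM at E0.5 and to 147, 208 and 90.7 FPKM at E4.5. Of the 7, 3 (Krt8, Krt19 and Cdh1) were called higher at E0.5, against 6.37% of all rows, with log2 fold changes of 1.96, 2.23 and 1.14, or 1.83, 2.44 and 0.85 without E4.5 replicate 3. The other 4 were not called and ran from -0.03 (Cldn3) to 0.98 (Epcam), or from -0.40 (Cldn3) to 0.63 (Epcam) without that library. The 7 markers summed to 848, 618 and 619 FPKM at E18.5 and to 205, 310 and 433 FPKM at E15.5. Krt8, Krt19 and Cdh1 were called higher at E18.5, against 3.11% of all rows, at 1.56, 1.61 and 1.0. The Cdh1 call, on the threshold of 1, was lost in 7 of 13 alternatives. The lowest Gjb2 value on each of E4.5 and E15.5 fell in the library with the lowest epithelial marker sum of that day, which was not so at E0.5 or E18.5. At E18.5, however, the sums of replicates 2 and 3 were nearly alike, at 618 and 619 FPKM. The trophoblast markers summed to 3.85 to 35.0 FPKM at E15.5 and to 43.0 to 74.6 FPKM at E18.5. The part of epithelial or trophoblast content in the Gjb2 differences was not tested.

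**Figure D4:**
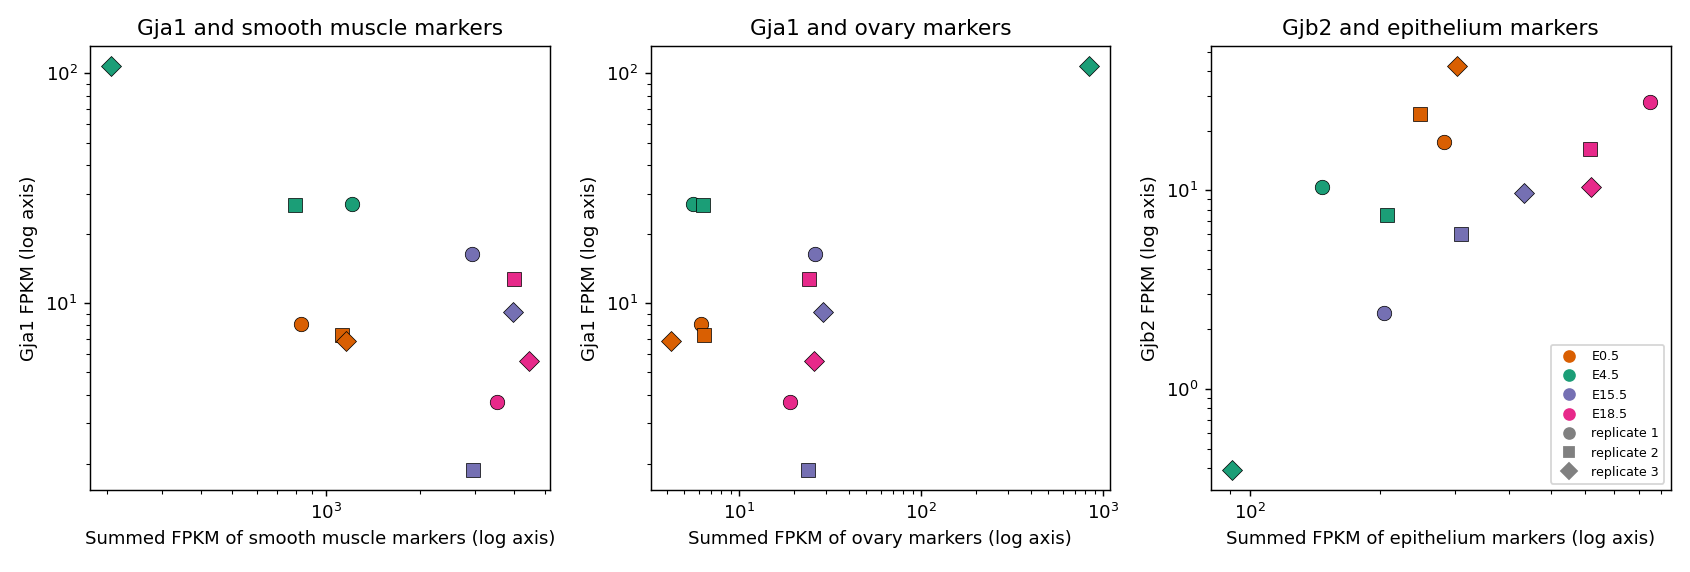
Gja1 against the summed smooth muscle markers (left) and ovary markers (middle), and Gjb2 against the summed epithelial markers (right), all in FPKM on log axes; each point is 1 mouse, coloured by day and shaped by replicate. Gjb2 is lowest, at 0.390 FPKM, in E4.5 replicate 3, whose epithelial markers sum to 90.7 FPKM; the 2 tables were normalized separately.

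Gjb1 (chromosome X, 101376378 to 101385629 on the plus strand) encodes Cx32, which joins glandular and other secretory epithelial cells. It was low early in pregnancy, with 0.672, 1.21 and 1.44 FPKM at E0.5, against 2.04, 2.31 and 0.912 FPKM at E4.5. The days overlapped through E4.5 replicate 3, and the log2 fold change was -0.66 (SE 0.48, edgeR adjusted p = 0.514, 95% interval -1.80 to 0.47). Without that library it was -0.98 (edgeR adjusted p = 0.203). At labor Gjb1 gave 14.2, 14.2 and 12 FPKM at E18.5 and 14.4, 20.0 and 21.7 FPKM at E15.5. All E18.5 mice were below all E15.5 mice, with a log2 fold change of -0.45 (SE 0.18, limma adjusted p = 0.387, 95% interval -0.88 to -0.02), under the size of the criterion. The sign of Gjb1 was thus opposite to that of Gjb2 at both stages. Gjb1 exceeded Gjb2 by 2.24 to 5.93 times in the E15.5 mice, and the ratio was 0.509, 0.880 and 1.15 in the E18.5 mice.

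Gjb5 (chromosome 4, 127354809 to 127358181 on the minus strand) lies near Gja4 and encodes Cx31.1, a connexin of stratified epithelium and trophoblast. It was the lowest of the 7 on all 4 days by its mean. Gjb5 gave 1.03, 0.377 and 0.606 FPKM at E0.5, against 0.862, 0.859 and 0 FPKM at E4.5. The 0 was E4.5 replicate 3, where no read was counted, and 3 counts in that library would equal 0.0211 FPKM. The log2 fold change was 0.20 (SE 1.33, edgeR adjusted p = 0.954, 95% interval -2.96 to 3.36) with this library and -0.38 without it. At labor it gave 0.827, 0.321 and 0.529 FPKM at E18.5 and 0.540, 0.343 and 0.265 FPKM at E15.5, and the log2 fold change was 0.42 (SE 0.39, limma adjusted p = 0.694).

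The difference between the day effects of the stages was tested with limma over all 12 libraries, as the E0.5 to E4.5 change minus the E18.5 to E15.5 change. It passed the adjusted threshold for 0 of the 7 connexins, against 2.64% of the 22056 row pairs tested, and 2 had an unadjusted p under 0.05, against 18.2%. For Gja4 it was -1.66 (SE 0.47, limma adjusted p = 0.0864, 95% interval -2.68 to -0.63), since Gja4 was lower on the first day at implantation and higher at labor. For Gja1 it was -2.47 (SE 1.07, limma adjusted p = 0.245), and -1.81 (limma adjusted p = 0.336) without E4.5 replicate 3, -1.59 without E15.5 replicate 2 and -3.12 without E15.5 replicate 1. For Gjb2, which was higher at E0.5 and at E18.5, it was 1.29 (SE 1.37, limma adjusted p = 0.665, 95% interval -1.73 to 4.31), and it turned to -0.10 (limma adjusted p = 0.958) without E4.5 replicate 3. The median over all row pairs was -0.13.

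Among the other connexins and pannexins reported here, Gja3 and Gja6 met the criterion between E0.5 and E4.5. Gja3, known from the lens, gave 0.0572, 0.443 and 0.678 FPKM at E0.5, against 0.0299, 0.0288 and 0.0469 FPKM at E4.5 (log2 fold change 3.44, edgeR adjusted p = 0.131). Gja3 passed the filter on low values only through its E0.5 libraries, with 8, 7 and 12 counts at E4.5, so its difference is in part set by the filter. Gja6 was lower, with 0.273, 0.246 and 0.189 FPKM at E0.5, against 0.728, 0.850 and 0.776 FPKM at E4.5 (-1.70, edgeR adjusted p = 0.0780). Both were expressed at low levels, at most 0.850 FPKM. Gja6 still met the criterion without E4.5 replicate 3, at -1.74. Gja3 was then at 3.68, but the same filter was used, so this value is likewise in part set by it.

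Between E18.5 and E15.5, Gja6 had a log2 fold change of -0.36 (limma adjusted p = 0.722), which did not meet the criterion. Panx1, which encodes a channel of single membranes, gave 1.22, 1.18 and 1.31 FPKM at E18.5 and 1.32, 1.10 and 1.11 FPKM at E15.5 (0.07, limma adjusted p = 0.901), and the days overlapped.

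The 15 connexin partners, which are scaffold, adhesion and kinase genes whose products bind or modify connexins, showed medians of 0.42 at implantation and 0.26 at labor on the log2 fold change scale. Over all rows the medians were -0.007 and 0.02. At implantation 3 of 15 were called, all higher at E0.5, where 12.2% of all rows were called and 6.37% were called higher. Of the 15, 1 passed the adjusted threshold, against 1.22% of all rows. That gene was Tjp3, a tight junction scaffold, with 8.79, 9.65 and 12.8 FPKM at E0.5, against 0.792, 1.42 and 0.662 FPKM at E4.5 (3.45, edgeR adjusted p = 0.0176). Ccn3, whose product binds the tail of Cx43, gave 13.1, 6.98 and 10.4 FPKM at E0.5, against 0.836, 2.54 and 0.249 FPKM at E4.5 (3.08, edgeR adjusted p = 0.122). Cdh1, the epithelial cadherin and also an epithelial marker, gave 37.8, 37.6 and 51.6 FPKM at E0.5, against 21.8, 25 and 10.9 FPKM at E4.5 (1.14, edgeR adjusted p = 0.162). Tjp1, which encodes ZO-1, the scaffold at Cx43 plaques, gave 10.1, 10.6 and 12.5 FPKM at E0.5, against 23.1, 20.9 and 12.8 FPKM at E4.5, and its log2 fold change of -0.78 (edgeR adjusted p = 0.218) was under the criterion. Without E4.5 replicate 3 Tjp3 was at 3.23 (edgeR adjusted p = 0.00325) and Ccn3 at 2.59 (edgeR adjusted p = 0.0298). Without it Cdh1 fell under the criterion at 0.85 (edgeR adjusted p = 0.0547), while Tjp1 met it at -1.01 (edgeR adjusted p = 0.0185). At labor 1 of 15 was called, against 6.05% of all rows. This was Cdh1, with 36.8, 29.4 and 25.6 FPKM at E18.5 and 8.01, 19.5 and 21.9 FPKM at E15.5 (1.0, limma adjusted p = 0.365). This log2 fold change lies on the threshold of 1, and the call was lost in 7 of 13 alternatives, among them a pseudocount of 1 (0.95) and leaving out E15.5 replicate 1 (0.55), E18.5 replicate 1 (0.86) or E18.5 replicate 2. The partners called were 2 without E15.5 replicate 2 and 3 without E15.5 replicate 3, where 1810 and 2395 of all rows were called.

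The 11 regulators of Gja1 transcription were the steroid receptors Pgr and Esr1, the repressors Zeb1 and Zeb2, and AP-1 subunits. At implantation 10 were tested and 1, Fos, was called (median log2 fold change 0.10, or -0.09 without E4.5 replicate 3). Over all rows 12.2% were called and the median was -0.007. Fos gave 9.09, 7.53 and 6.05 FPKM at E0.5, against 2.51, 1.66 and 1.91 FPKM at E4.5 (1.89, edgeR adjusted p = 0.0353), and was at 1.82 (edgeR adjusted p = 0.0174) without E4.5 replicate 3. Jund, at 0.98 (edgeR adjusted p = 0.0568), was just under the criterion, and the count of regulators called was 2 in 5 of 12 alternatives, among them leaving out E0.5 replicate 2, E0.5 replicate 3 or E4.5 replicate 1. Fos was higher and Gja1 lower at E0.5, and a link between the 2 genes was not tested. At labor the 11 genes had 12 rows, with 2 for Junb, and 2 were called higher at E18.5 (median log2 fold change 0.21), or 1 at a pseudocount of 1 and with a filter of 1 FPKM. Over all rows 6.05% were called and the median was 0.02. Fos gave 18.4, 25.9 and 17.7 FPKM at E18.5 and 5.04, 6.15 and 6.56 FPKM at E15.5 (1.78, limma adjusted p = 0.0545). Fosb gave 1.05, 1.82 and 0.922 FPKM at E18.5 and 0.0529, 0.313 and 0.442 FPKM at E15.5 (2.01, limma adjusted p = 0.211). Pgr, which encodes the progesterone receptor, gave 7.86, 7.54 and 6.36 FPKM at E18.5 and 7.48, 6.87 and 9.56 FPKM at E15.5, and its log2 fold change was -0.13 (limma adjusted p = 0.787). Pgr, Esr1, Zeb1 and Zeb2 were not called at either stage. Without E4.5 replicate 3 all of them stayed under the fold threshold at implantation. Pgr was then at -0.95 (edgeR adjusted p = 0.101), Zeb1 at -0.87 (edgeR adjusted p = 0.0878), Zeb2 at -0.31 and Esr1 at -0.13.

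**Figure D5:**
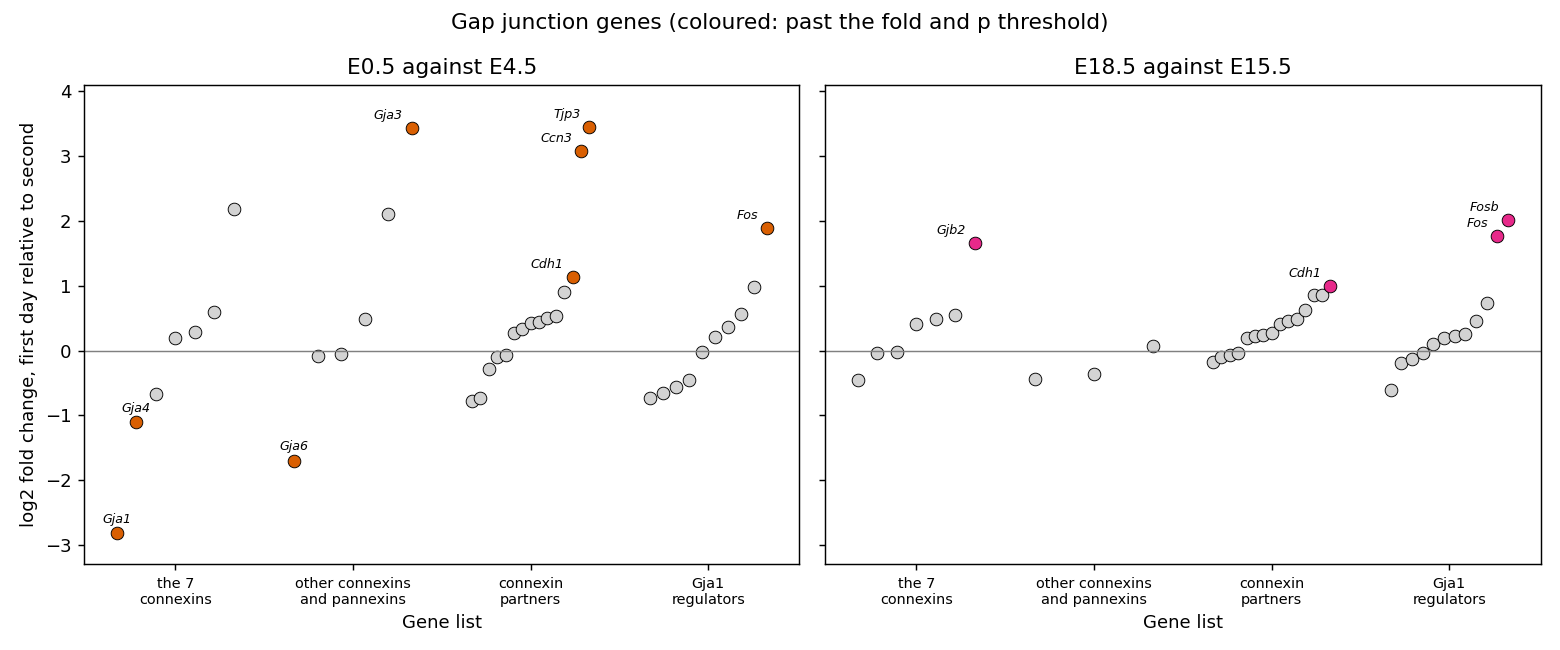
Log2 fold change of each tested row of the 7 connexins, the other connexins and pannexins reported here, the connexin partners and the regulators of Gja1, as E0.5 over E4.5 and as E18.5 over E15.5; each point is 1 row, and coloured, named points met the fold and p criterion. Fos is called in both panels, at 1.89 and 1.78, and Gja1 is called at -2.82 in the left panel.

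For the 5 connexins with a mean of at least 1 FPKM in both tables, the protein-coding rows with the most similar profile over the 12 libraries were found by the root mean square difference of log2(FPKM + 0.1), centred on each table's mean, among 9164 rows. For Gja1 these were Tmem97 at 0.633 and Lpcat2 at 0.714, where the median over all rows was 1.24. For Gja4 they were the endothelial transcription factor gene Sox18 at 0.268 and Unc5b at 0.270 (median 0.616). For Gjb1 they were Grb10 at 0.244 and Tmem125 at 0.244 (median 0.551), and for Gjb2 the epithelial gene Prom1 at 0.507 and Dio2 at 0.597 (median 1.71). For Gjc1 they were Sec16b at 0.112 and Pdzrn3 at 0.143 (median 0.482). The points share libraries and depth, so these likenesses are descriptions. The 12 libraries include E4.5 replicate 3, and the likenesses were not computed without it.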

How the data were processed

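Whole uteri of 12 ICR mice, 3 at each of 4 days, were sequenced, and groups were taken from the labels. According to the study's methods, the authors trimmed reads with Cutadapt, mapped them with Bowtie2 and Tophat2 and estimated FPKM with StringTie and Ballgown. The submitters' processing notes name Bowtie 0.12.2, HISAT2 2.0 and StringTie 1.3.0 and the builds mm8 and mm10. The labels describe poly(A) selection and the methods describe rRNA depletion. The deposited values are FPKM in both tables, made separately, and whole-number read counts for E0.5 and E4.5. How reads were assigned to rows is not given in the sources used here. Of the protein-coding rows, 19270 of 19279 lay over the RefSeq gene with their name in GRCm38, whose coordinates are therefore used.

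From the deposited counts, E0.5 was compared with E4.5 by edgeR 4.0.16 (quasi-likelihood test, TMM factors) in R 4.3.3. The deposited FPKM of E18.5 and E15.5 were compared by limma 3.58.1 with trend on log2(FPKM + 0.1), which understates the change of low genes. A row was tested if its mean over the 6 libraries reached 0.1 FPKM, and FPKM of 0.0001 was read as 0. Rows with no gene name held 1.02% to 1.86% of counts and were kept as assembled loci. The stages were compared by limma over rows of both tables that share Ensembl transcripts. P-values were adjusted by Benjamini-Hochberg over all rows tested, and intervals are 95% intervals. Mice were separate animals, so p-values measure the spread between mice. Named were all 7 connexins, genes of the 3 lists that met the criterion, and the 2 nearest rows of 5 connexins. Tjp1, Jund, Pgr, Esr1, Zeb1, Zeb2 and Panx1 were added after their values were seen. Some members of the list of other connexins and pannexins are not reported here, so no count or median is given for that list. The members and lists were chosen with earlier results of these data known. Marker lists were counted for smooth muscle, epithelium, endothelium, decidua and stroma, trophoblast, yolk sac, ovary and liver. Alternatives were DESeq2 1.42.0, other scaling, pseudocounts and filters, a replicate block and leaving out each library.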

Additional observations from a re-analysis of the deposited data

Results flagged for a closer look

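The day effect of Gja4, the gene of the endothelial connexin Cx37, differed between the stages by -1.66 on the log2 scale (SE 0.47). It was picked out because all 3 E0.5 mice lay below all 3 E4.5 mice, while all 3 E18.5 mice lay above all 3 E15.5 mice. In limma's test of the difference itself the adjusted p was 0.0864, so it did not pass 0.05 over all row pairs.

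A further row named Gjc1, with no Ensembl transcript, lay at chromosome 11, 102796288 to 102798980, next to the annotated gene, over 2693 bases. It was not used in the comparisons, and it had a mean of 1.97 FPKM over the 6 libraries of E0.5 and E4.5, with a log2 fold change of 0.03 (edgeR adjusted p = 0.975). A further row named Gja5, of 252 bases at chromosome 3, 97033117 to 97033368, within the bounds of the annotated row, had a mean of 0.870 FPKM and a log2 fold change of 1.32 (edgeR adjusted p = 0.494).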

How the results depend on the processing

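At implantation, of 82 values of the 7 connexins under alternatives, 73 kept their direction and their side of the criterion, 2 lost the call, 4 gained it and 3 turned direction. At labor, of 90 values 82 kept both, 1 lost the call and 7 turned, and of 103 stage differences 89 kept both and 14 turned. DESeq2 brought the connexins past the adjusted p at implantation from 0 to 1 (Gja1, adjusted p = 1.73e-05). At a pseudocount of 1 the stage differences of Gja5, Gjb1 and Gjb5 turned to -0.12, 0.065 and -0.040. When single libraries were left out, the connexins called ranged from 1 to 3 at implantation and from 0 to 1 at labor, where 6000 to 8442 and 1537 to 2395 of all rows were called, and those past the adjusted p from 0 to 1 at implantation, where 1 is the value without E4.5 replicate 3. The fold changes then ranged at implantation from -0.38 to 0.68 for Gjb5 and from -0.022 to 0.71 for Gjc1, and at labor from -0.92 to 0.61 for Gja1 and from -0.12 to 0.047 for Gjc1. The stage differences ranged from -0.19 to 0.41 for Gja5, from -0.52 to 0.17 for Gjb1, from -0.10 to 2.10 for Gjb2 and from -0.82 to 0.81 for Gjb5. The cause of these changes was not tested.

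Rows called over the whole table were 4396 at implantation with a filter of 1 FPKM (7284 as reported, with 0.1 FPKM) and at labor 799 with that filter and 514 at a pseudocount of 1 (1870 as reported). Rows past the adjusted p at implantation were 1126 with that filter, 5816 in DESeq2 and 0 to 3629 with single libraries left out (730 as reported), and at labor 3, 4 at a pseudocount of 1, 4 with no filter, 27 without trend and 0 to 28 (8 as reported). With a filter of 1 FPKM neither Gja3 nor Gja6 was tested at implantation. Correlations of the deviations of same-numbered mice ran from -0.0664 to 0.0180 at implantation and from -0.0359 to 0.00260 at labor. Those of differently numbered mice ran from -0.0697 to 0.0944 and from -0.0206 to 0.0216. With 3 mice per day this check cannot exclude a batch shared by number. With the replicate block 2 and 1 connexins were called at implantation and at labor, where 6234 and 1853 of all rows were called. Gja1 was then -2.49 at implantation (edgeR adjusted p = 0.172), and 0 rows at implantation and 2 at labor passed the adjusted p. With 3 mice per day, Gja1 at labor and Gjb5 at implantation have intervals too wide to show a change.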
